A study of Arabidopsis thaliana with 22 samples.

Results

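The 8 Arabidopsis thaliana genes described here are AT2G20670, AT5G19120, AT3G15450, AT2G24550, AT1G23390, AT3G15630, AT3G49790 and AT1G54740. They were chosen by their measured intensities: their probe sets rise from 0 to 1 h and fall from 12 to 13 h of a 24 h time course. Each has 1 probe set that the platform annotation gives to it alone, out of 13513 probe sets naming 1 gene and 22746 probe sets without controls. The rise and the fall therefore chose the genes and are given below as a description, with no test. What the choice did not use are the arrays at 2, 4, 8, 14, 16, 20 and 24 h. The main tests were made on these arrays alone, and an alternative fit used all 22 arrays.

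Leaves of Col-0 plants at growth stage 3.90, grown on compost under 12 h of light and 12 h of dark, were profiled on Affymetrix ATH1 arrays, which measure each gene with a set of short probes. Leaf RNA was taken at 11 hours (0, 1, 2, 4, 8, 12, 13, 14, 16, 20 and 24 h), once in replicate series 1 and once in replicate series 2, with 20 plants pooled per sample and 22 arrays in all. No mutant or other ecotype is among the samples, so every comparison is between hours. The labels do not say in words which change of light falls at 0 h. The number in the series 1 titles is 21 at 0 h, 22 at 1 h, 8 at 12 h, 10 at 13 h and 21 at 24 h, and GI, a clock gene known to peak late in the light period, was highest at 20 h. For the arrays called 8 h and 16 h here, after their source names, an age label reads 5 h and 14 h. Whole leaves were measured, so fewer cells of a type and less RNA per cell cannot be told apart.

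As background, plants live on sugar made in the light and on starch stored for the dark. When carbon runs short, the SnRK1 kinase, the plant relative of yeast Snf1 and animal AMPK, slows growth and turns on genes for recycling of protein and lipid. Several of the 8 genes are familiar from studies of darkness and low sugar in this species, where their transcripts are high when sugar is low.

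AT1G23390 is the member with the best known role. It encodes KFB-CHS, a Kelch-repeat F-box protein that directs the breakdown of chalcone synthase, the entry enzyme of flavonoid synthesis. AT5G19120 encodes a protein of the aspartyl protease family, and AT3G15450 an aluminium-induced protein with YGL and LRDR motifs. AT3G49790 is annotated as a carbohydrate-binding protein and AT1G54740 as a FAF-like protein, after a small family that acts on shoot meristem size. AT2G20670 carries a domain of unknown function, DUF506. AT2G24550 is annotated as similar to a centromere autoantigen, and AT3G15630 encodes a small protein of unknown function. For the last 3 no molecular role can be given here.

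The arrays were alike in level. The deposited values are linear intensities with a common trimmed mean of 100 (2% of probe sets left out at each end), and array medians ran from 37.6 to 44.7. The 2 arrays of an hour correlated at 0.942 to 0.965 over the probe sets tested. The 27 bacterial control probe sets, which have no target in leaf RNA, had a median value of 2.00 and reached 29.2 at most. Of the 8 leaf markers, genes of photosynthesis, 6 were measured under their own name and stood between 694.1 and 6416.8 on all arrays. Both root markers so measured, PYK10 and EXPA7, stood between 3.7 and 23.5, inside the range of the bacterial controls. The ratio of the 3′ to the 5′ actin probe sets, which is higher in degraded RNA, was 1.85 ± 0.28 in series 1 and 3.20 ± 1.21 in series 2 (SD, n = 11 each), with its highest value, 6.31, at 1 h in series 2.

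All 8 genes passed the filter on level, which kept the upper 60% of probe sets by their mean (13648). Their values follow hour by hour, with series 1 before series 2, as linear intensities, and every log2 value in the text is a difference of log2(intensity + 4.01). Levels of different probe sets are not compared with each other, since probe sets differ in brightness for the same amount of RNA.

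AT2G20670 was below the highest bacterial control at both ends of the cycle. It stood at 4.8 and 3.4 at 0 h, then 269.2 and 73.6 at 1 h. At 2 h it was 131.3 and 56.9, at 4 h 79.3 and 36.5, and at 8 h 116.0 and 97.9. The mean at 4 h was 33.8% of that at 1 h, and the level at 8 h lay above that at 4 h in both series. The 12 h arrays, at 386.5 and 413.3, were the highest in each series, and those at 13 h read 49.9 and 14.5. Later values were 106.5 and 49.1 at 14 h, 113.8 and 95.3 at 16 h, 63.8 and 5.1 at 20 h, and lastly 5.1 and 2.4 at 24 h. The second maximum at 16 h was thus followed by a return to the 0 h level, and the series differed at 20 h. On 6 of 22 arrays this gene lay below the highest bacterial control, so its log2 differences against those arrays depend on the pseudocount. In the order of its hourly means 12 h stood clear of the hour below it. The 20 h arrays also lay above those of 0 h, but their nearest values were 5.1 and 4.8, both below the highest bacterial control. The other 8 neighbouring pairs overlapped.

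AT5G19120, the aspartyl protease gene, was high through the first 12 h and low through the rest. It read 49.5 and 20.1 at 0 h and 758.4 and 342.1 at 1 h. Values at 2 h were 452.6 and 220.7, at 4 h 229.0 and 126.7, and at 8 h 288.1 and 234.0. Again 4 h was the lowest of these hours, at 32.3% of the 1 h mean. At 12 h the gene was at 634.7 and 679.0, and at 13 h at 58.2 and 27.8. From 14 to 24 h series 1 read 104.4, 79.6, 73.1 and 41.3, while series 2 read 31.7, 75.8, 35.8 and 40.2. None of these 8 late arrays reached the lowest of the 6 arrays at 2, 4 and 8 h, and only 2 of its 10 neighbouring pairs of hours were free of overlap.

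AT3G15450, the aluminium-induced family gene, came back late in the cycle, to a late maximum at 20 h that AT3G15630 also had. Its values were 83.3 and 57.8 at 0 h and 1265.2 and 485.2 at 1 h. They were 940.4 and 550.6 at 2 h, 622.4 and 280.8 at 4 h, and then 680.7 and 509.1 at 8 h. The series differed in when the early maximum came, since series 1 was highest at 1 h and series 2 at 2 h among these hours. At 12 h the arrays read 1448.2 and 958.2, and at 13 h 90.8 and 37.0. Thereafter it stood at 88.9 and 69.4 at 14 h, 169.5 and 246.8 at 16 h, 982.6 and 300.9 at 20 h, and lastly 81.1 and 71.1 at 24 h. The 20 h level was thus above the range of 2, 4 and 8 h in series 1 and within it in series 2.

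AT2G24550 kept much of its 1 h level through the next hours. It read 24.3 and 19.4 at 0 h, and 202.2 and 163.9 at 1 h. It read 153.2 and 123.7 at 2 h, 144.2 and 124.7 at 4 h, and then 183.2 and 259.7 at 8 h. The 4 h mean was 73.4% of the 1 h mean, the highest such share of the 8 genes. The arrays at 12 h read 379.1 and 277.7 and those at 13 h 32.3 and 58.1. Values of 69.7 and 88.4 at 14 h, 107.5 and 154.9 at 16 h, 81.6 and 66.9 at 20 h, and lastly 30.4 and 55.8 at 24 h followed. As with AT2G20670, 16 h was the highest of the late hours in both series. Of its 10 neighbouring pairs of hours, 5 did not overlap.

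AT1G23390, the chalcone synthase F-box gene, was expressed well above the floor at every hour, and its low point was a single hour. Its arrays read 166.2 and 209.0 at 0 h and 658.1 and 555.1 at 1 h. At 2, 4 and 8 h series 1 was at 443.4, 321.4 and 536.4 and series 2 at 392.4, 254.2 and 548.2. Both series thus dipped at 4 h and came back by 8 h. At 12 h it stood at 750.5 and 785.4, and at 13 h at 54.5 and 67.7. By 14 h it was back at 203.5 and 192.4, then 377.7 and 536.1 at 16 h, 391.2 and 370.7 at 20 h, and lastly 161.6 and 214.8 at 24 h. Only the 13 h arrays lay below every array of 0 h and 24 h. With 7 of 10 neighbouring pairs of hours free of overlap, this gene had the most such pairs among the 8. These counts, here and for the other genes, include the hours that chose the genes. They were not made for other probe sets, so how usual they are is not known.

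AT3G15630 had its highest mean at 2 h and not at 12 h. It read 118.1 and 90.6 at 0 h, 789.3 and 334.6 at 1 h, and then 678.9 and 530.8 at 2 h. At 4 h it was at 357.4 and 340.0 and at 8 h at 339.7 and 457.2. The 12 h values of 294.3 and 307.5 lay below both 4 h arrays, unlike in the other 7 genes, and the 12 h mean was 0.535 times the 1 h mean. At 13 h the arrays read 58.1 and 40.3. The decline went on to 16.4 and 24.6 at 14 h, with 30.0 and 46.0 at 16 h, 132.3 and 113.9 at 20 h, and lastly 110.6 and 93.8 at 24 h. At 14 h this gene lay below the highest bacterial control in both series, so its log2 differences that include this hour depend on the pseudocount. Its recovery by 20 h reached the level of 0 h and 24 h, and the 20, 0 and 24 h arrays overlapped.

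AT3G49790, the gene annotated as carbohydrate-binding, was high at 1, 8 and 12 h and low from 13 h on. It stood at 44.4 and 25.8 at 0 h and 226.7 and 115.1 at 1 h. Values of 135.0 and 59.2 at 2 h, 72.0 and 59.9 at 4 h, and then 138.1 and 114.1 at 8 h followed. At 12 h it was 195.7 and 151.3, and at 13 h 38.4 and 23.2. The late arrays read 31.4 and 18.8 at 14 h, 21.6 and 32.2 at 16 h, 40.2 and 34.4 at 20 h, and lastly 45.3 and 29.9 at 24 h. These late values stayed inside a narrow band around the highest bacterial control. On 4 of 22 arrays, 14 h of series 2 and 16 h of series 1 among them, the gene lay below it. Its log2 differences that include those arrays depend on the pseudocount. Only the step from 4 h to 20 h separated neighbours in its order of hours.

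AT1G54740, the FAF-like gene, had the closest replicate series. It read 22.1 and 19.1 at 0 h and 145.3 and 101.4 at 1 h. At 2 h it was 86.7 and 93.6, at 4 h 72.1 and 65.8, and at 8 h 92.7 and 68.1. Both 2 h arrays thus lay above both 4 h arrays, and the 8 h arrays overlapped those of 2 h and of 4 h. At 12 h the arrays read 266.5 and 296.1, the mean being 2.28 times that at 1 h, and at 13 h 67.0 and 58.8. The later values were 42.7 and 38.8 at 14 h, 40.3 and 44.1 at 16 h, 24.2 and 22.8 at 20 h, and lastly 36.2 and 38.2 at 24 h. It therefore reached its late minimum at 20 h, when AT3G15450 and AT3G15630 were at their late maximum. On 4 of 22 arrays, those at 0 and 20 h, AT1G54740 lay below the highest bacterial control, so its log2 differences against those hours depend on the pseudocount.

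**Figure D1:**
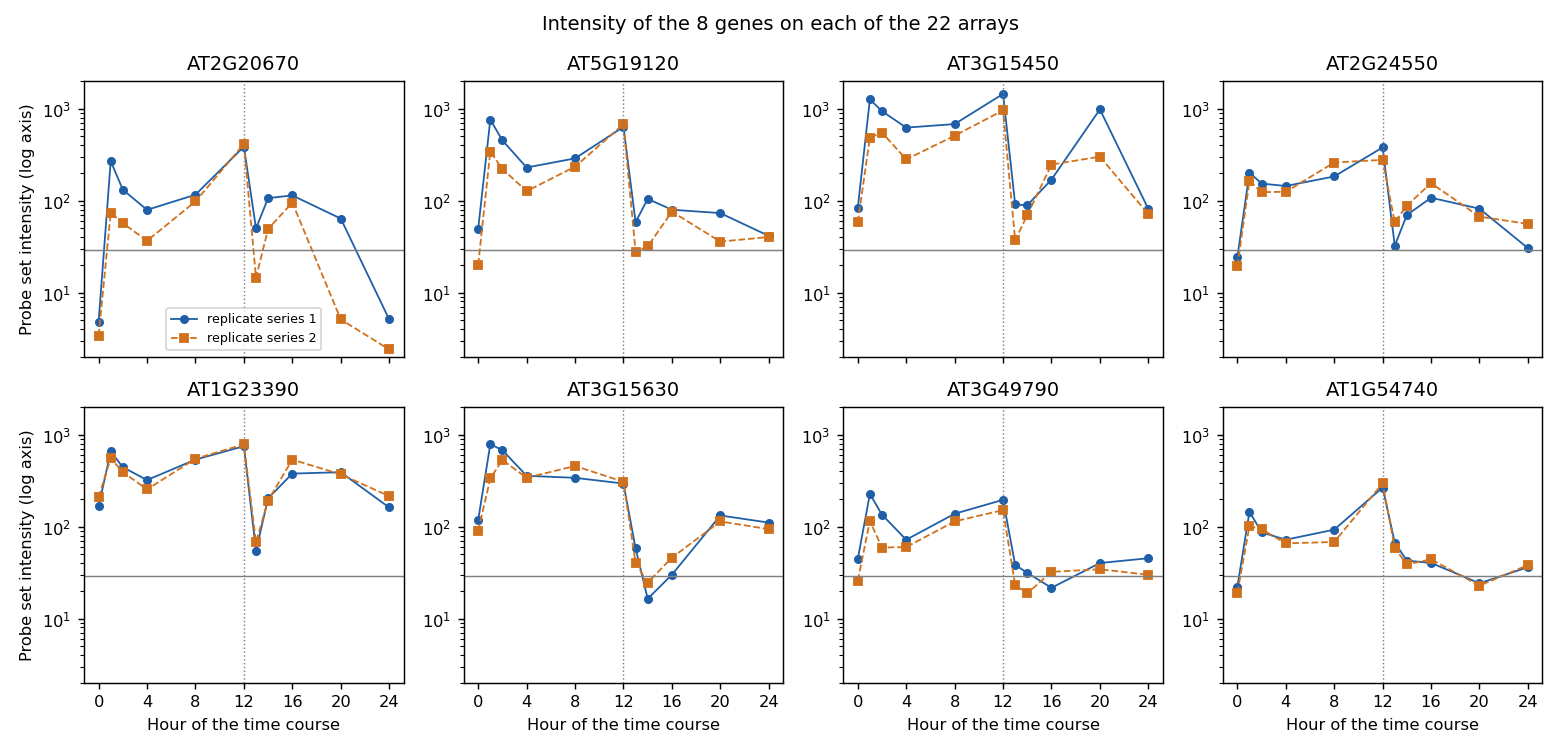
Intensity of the 8 genes against the hour of the time course, 1 panel per gene, on a log axis. Each point is 1 array, circles for replicate series 1 and squares for series 2, the dotted line marks 12 h and the grey line the highest bacterial control value, 29.2. In all 8 panels both series are higher at 1 h than at 0 h and lower at 13 h than at 12 h, the steps that chose the genes. The other hours differ from gene to gene.

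The steps that chose the genes were of unequal size, and are given without a test. From 0 to 1 h AT2G20670 differed by 4.95 in series 1 and 3.39 in series 2 (log2), AT5G19120 by 3.83 and 3.84, and AT3G15450 by 3.86 and 2.98. AT1G23390 had the smallest mean rise of the 8 (1.68) and AT1G54740 the smallest mean fall at 13 h (-2.09). From 12 to 13 h the differences were -3.94 and -4.55 for AT3G15450, -3.36 and -4.42 for AT5G19120 and -3.69 and -3.46 for AT1G23390. The rule set no minimum size. In all, 23 of the 13648 probe sets had both steps at least as large as the smallest of these genes, the 8 genes and 5 other named ones (AT5G26200, AT5G60680, AT5G08520, AT1G49500 and ATG8E) among them. AT5G08520, with a rise of 1.70 and a fall of -2.78, lies just beside AT1G23390 in its rise. Rises and falls of at least 1 in both series were found in 65 probe sets (0.476% of those tested), 27 of them other named genes.

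Hours next to the rule's hours also involve its arrays and are description only. From 1 to 2 h 7 of the 8 genes went down and AT3G15630 went up, by 0.22 on the log2 scale. From 8 to 12 h 7 went up, with a median of 0.78, by as much as 1.87 for AT2G20670 and 1.77 for AT1G54740, and AT3G15630 had -0.39. From 13 to 14 h 5 went up, AT1G23390 by 1.64 and AT2G20670 by 1.28, and 3 went further down, AT3G15630 with -1.12. At 24 h 6 genes were within 0.32 of their 0 h level on the log2 scale, while AT2G24550 was higher at 24 h by 0.82 and AT1G54740 by 0.75, both without overlap of the arrays. The 0 h arrays of AT2G24550 and AT1G54740 were below the highest bacterial control, so the sizes of these differences depend on the pseudocount.

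The hours not used to choose the genes were compared next, 2, 4 and 8 h (6 arrays) against 14, 16, 20 and 24 h (8 arrays). These hours are not independent of the choice. The early ones lie between 1 and 12 h, where the genes were chosen as high. The late ones follow 13 h, chosen as low, and end at 24 h, the same point of the cycle as 0 h, also chosen as low. The choice thus favours a difference in this direction, and the shares of all probe sets carry no such choice. The genes were higher in the early hours: 7 of the 8 passed the test in limma, against 10.4% of all probe sets tested, and their median difference was 1.34 on the log2 scale, against -0.00074 over all probe sets. The standard errors and p-values of this test come from how far the 2 arrays of an hour lie apart. In limma this spread is drawn in part toward that of probe sets of similar level. Different hours are not treated as replicates.

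AT3G15630 had the largest difference, with arrays from 339.7 to 678.9 (median 407.3) in the early hours and from 16.4 to 132.3 (median 69.9) in the late hours. The groups did not overlap, and the log2 difference was 2.86 ± 0.13 (SE, adjusted p = 1.52e-07). AT5G19120, the protease gene, went from 126.7 to 452.6 (median 231.5) early and from 31.7 to 104.4 (median 57.2) late, again without overlap, with a difference of 2.04 ± 0.27 (adjusted p = 0.000363). AT3G49790 spanned 59.2 to 138.1 early and 18.8 to 45.3 late, a difference of 1.44 ± 0.19 (adjusted p = 0.000407). AT1G54740 spanned 65.8 to 93.6 early and 22.8 to 44.1 late, a difference of 1.09 ± 0.10 (adjusted p = 3.19e-05). These 4 genes had no early array as low as any late array, a separation seen in 1.88% of the probe sets tested.

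In the other 4 genes the 2 groups of arrays overlapped. AT3G15450 lay between 280.8 and 940.4 (median 586.5) early and between 69.4 and 982.6 (median 129.2) late, the highest late array being series 1 at 20 h, and its difference was 1.77 ± 0.27 (adjusted p = 0.000972). AT2G24550 lay between 123.7 and 259.7 early and between 30.4 and 154.9 late, with a difference of 1.05 ± 0.15 (adjusted p = 0.000764). The F-box gene AT1G23390 had the smallest difference, 0.50 ± 0.11 (adjusted p = 0.00816), with 254.2 to 548.2 early and 161.6 to 536.1 late. AT2G20670, at 36.5 to 131.3 early and 2.4 to 113.8 late, differed by 1.24 ± 0.41 and did not pass (adjusted p = 0.0523). With the replicate number as a block it passed (adjusted p = 0.00417), making 8 of 8, where 16.3% of all probe sets passed as higher.

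The direction was the same in both series for all 8 genes, which holds for 35.9% of all probe sets in the direction of the early hours. Within series 1 the differences ran from 0.68 for AT1G23390 to 2.94 for AT3G15630, and within series 2 from 0.33 to 2.79 for the same genes. In 6 of 8 genes, all but AT1G23390 and AT2G24550, they reached 1 in both series, as in 0.733% of all probe sets. Without the 8 h and 16 h arrays, whose labels disagree, 7 of the 8 were still higher in the early hours. The actin ratio was 2.18 ± 0.52 (SD, n = 6 arrays) at the early and 2.42 ± 0.83 (SD, n = 8 arrays) at the late hours. Without the 3 arrays of highest ratio, at 8, 20 and 24 h of series 2, 7 genes were higher and the differences ran from 0.54 for AT1G23390 to 2.74 for AT3G15630, with AT2G20670 at 0.85 (adjusted p = 0.134).

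**Figure D2:**
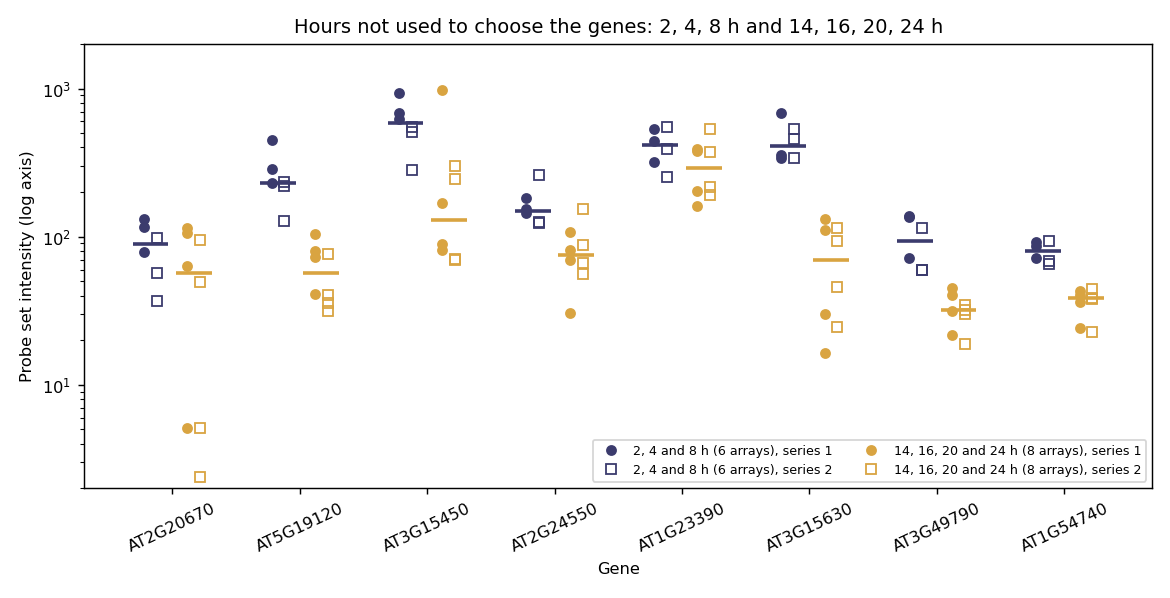
Intensity on a log axis for each of the 8 genes on the arrays that did not choose them. Dark symbols are the 6 arrays at 2, 4 and 8 h and light symbols the 8 arrays at 14, 16, 20 and 24 h, circles for series 1 and squares for series 2, with a bar at the median of each group. The groups are apart for AT5G19120, AT3G15630, AT3G49790 and AT1G54740 and overlap for the other 4 genes.

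Within the early hours the genes dipped in the middle, but no step passed the test. From 2 to 4 h all 8 differences were below 0, from -0.04 for AT2G24550 to -0.88 for AT5G19120, with a median of -0.59. From 4 to 8 h all 8 were above 0, from 0.18 for AT3G15630 to 0.93 for AT2G20670, with a median of 0.64. In limma 0 of 8 passed for either step, with 2 and 3 at an unadjusted p under 0.05, and in all 0.00733% and 0.22% of probe sets passed. Nor did any of the 8 pass for a change among 2, 4 and 8 h, which 0.593% of probe sets did, with 2 at an unadjusted p under 0.05 and 0 with the replicate block, where 2.84% of probe sets passed. The standard error of a single step, from 0.19 for AT1G54740 to 0.75 for AT2G20670, is as large as many of these differences.

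Within the late hours the genes took different courses after 16 h. A change among 14, 16, 20 and 24 h passed for 5 of the 8 genes, against 12.3% of all probe sets, and for 6 with the replicate block, against 22% of all probe sets in that fit. These were AT3G15630 (adjusted p = 0.000107), AT1G23390 (0.00207), AT3G15450 (0.00666), AT2G20670 (0.0157) and AT2G24550 (0.0199), and with the block AT1G54740 (0.0237, against 0.0525 without it). AT5G19120 (adjusted p = 0.693) and AT3G49790 (0.642) did not pass, the latter with late values around the highest bacterial control. Without either 24 h array the call of AT2G20670 was lost (adjusted p = 0.0592 without series 1 and 0.0923 without series 2), and that of AT2G24550 without the 24 h array of series 1 (0.0876) or the 16 h array of series 2 (0.0848).

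The F-box gene AT1G23390 rose from 14 to 16 h by 1.17 ± 0.20 (SE, n = 2 arrays an hour; adjusted p = 0.0305 in limma), a step that 0.366% of probe sets passed as higher. All 8 differences of this step were above 0, with AT3G15450 at 1.34 ± 0.50, but no other gene passed. From 16 to 20 h the genes split. AT3G15630 rose by 1.62 ± 0.24 (adjusted p = 0.00225; 2.71% of probe sets rose) and AT1G54740 fell by 0.75 ± 0.19 (adjusted p = 0.0434; 2.03% fell). With the block AT3G15450 also rose, by 1.39 (adjusted p = 0.0429, where 4.51% rose). AT2G20670 also fell in that fit, with -2.12 (adjusted p = 0.018, where 4.01% fell). Neither passed without the block, where the standard errors were 0.50 and 0.75. The rise of AT3G15450 was mostly in series 1, from 169.5 to 982.6, against 246.8 to 300.9 in series 2. The 20 h array of AT2G20670 in series 2 was below the bacterial controls' highest value, so the size of its fall depends on the pseudocount. The same holds for AT1G54740, whose 20 h arrays (24.2 and 22.8) were both below that value.

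From 20 to 24 h AT3G15450 fell by 2.78 ± 0.50 (adjusted p = 0.0291) and AT1G23390 by 1.02 ± 0.20 (adjusted p = 0.0488), a step in which 0.462% of probe sets fell. AT2G20670 had -1.70 ± 0.75 and did not pass, and AT1G54740 had 0.58 ± 0.19, the only difference of the 8 above 0. Apart from the rise of AT3G15630, the calls for single steps were lost in many alternatives. The fall of AT3G15450 was -1.93 (adjusted p = 0.216) without the 20 h array of series 1. It passed in 17 alternatives and not in 9. That of AT1G23390 passed in 8 alternatives and not in 18 (adjusted p = 0.0718 without a filter). Its rise from 14 to 16 h passed in 18 and not in 7, and was 0.92 (adjusted p = 0.209) without the 16 h array of series 2. The fall of AT1G54740 passed in 8 and not in 16, and was -0.69 (adjusted p = 0.210) without that array.

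**Figure D3:**
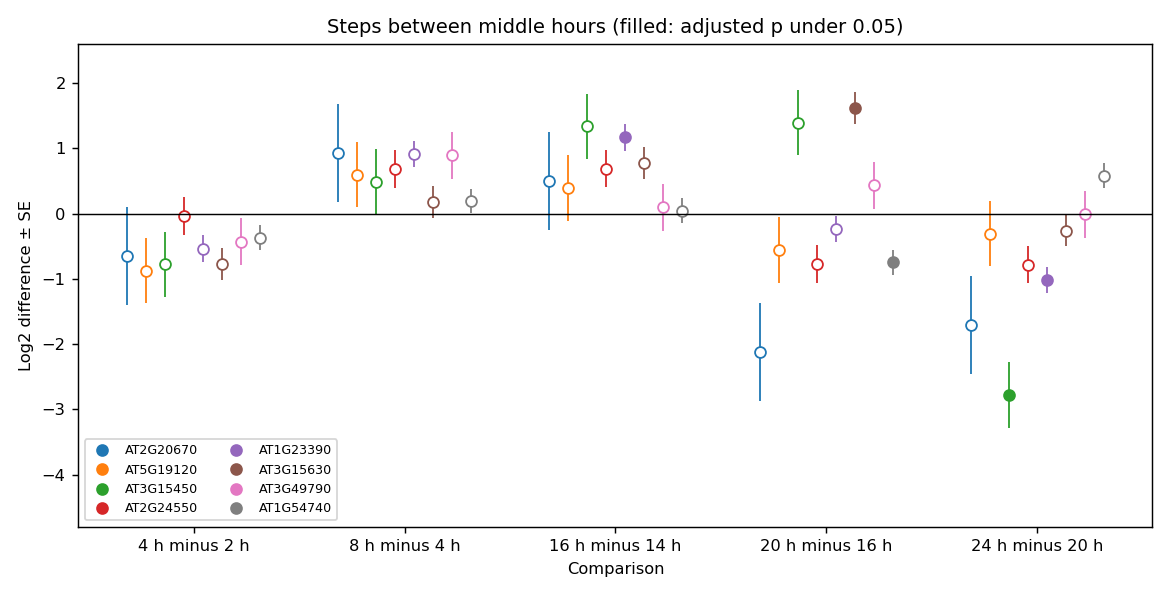
Log2 difference between neighbouring hours among those not used to choose the genes, with 1 point per gene in each of 5 comparisons and bars for the standard error. Filled points passed the test at an adjusted p under 0.05. All 8 points lie below 0 from 2 to 4 h and above 0 from 4 to 8 h with none filled, and from 16 to 20 h AT3G15630 rose and AT1G54740 fell.

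The replicate series agreed in shape and differed in level. Across the 11 hours the values of series 1 and series 2 correlated at 0.884 for AT2G20670, 0.939 for AT5G19120, 0.933 for AT3G15450, 0.918 for AT2G24550, 0.968 for AT1G23390, 0.957 for AT3G15630, 0.917 for AT3G49790 and 0.978 for AT1G54740. These correlations include the hours that chose the genes, and the points share a series. The median was 0.936, against 0.517 over all probe sets and 0.888 over the 1126 whose hourly means range over more than 2 on the log2 scale. The median distance between the 2 arrays of an hour was nevertheless 0.454 for the 8 genes and 0.253 for all probe sets.

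Series 2 lay lower in most hours. At 1 h all 8 genes were lower in series 2, with a median difference of -1.05 on the log2 scale, where 48.0% of all probe sets were lower and their median was 0.02. The gap at 1 h was largest for AT2G20670, with 269.2 in series 1 and 73.6 in series 2, and for AT3G15450, with 1265.2 and 485.2. All 8 genes were also lower in series 2 at 4 and 20 h, and 7 were at 0 and 2 h. At 16 h it was the reverse, with 2 genes lower and a median of 0.50 in favour of series 2, and at 12 h 3 were lower. In series 2 the actin ratio was 6.31 at 1 h, 2.39 at 4 h and 2.81 at 20 h. It was 4.01 at 12 h, 2.39 at 16 h and 4.15 at 24 h, where 5 genes were lower in series 2. The part of RNA quality in these gaps was not tested. AT2G20670 at 20 h read 63.8 in series 1 and 5.1 in series 2, the latter below the highest bacterial control, so the size of that gap is not measured. AT1G23390 and AT1G54740 differed by at most 0.50 between series.

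**Figure D4:**
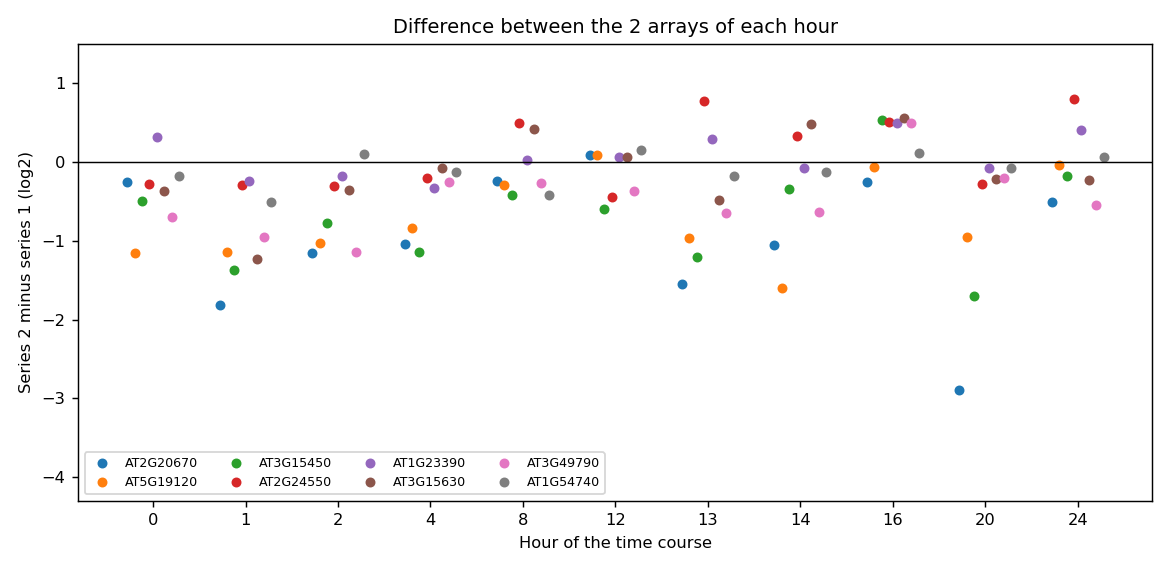
Log2 difference of series 2 minus series 1 at each hour of the time course, with 1 point per gene. At 1, 4 and 20 h all 8 points lie below 0, at 16 h 6 lie above it, and the lowest point is AT2G20670 at 20 h, where its series 2 array was below the highest bacterial control.

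Over the 11 hourly means the genes followed each other to differing degrees. The 28 pairs correlated from 0.346 (AT3G15630 with AT2G20670) to 0.938 (AT3G49790 with AT5G19120), with a median of 0.80. Shared hours of choice fix part of this. With the mean profile of the 8, each centred on its own mean, AT5G19120 correlated most closely (0.986) and AT3G15630 least (0.781).

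The named genes outside the 8 whose hourly means were most like that mean profile were taken from 2315 named probe sets with a range over 1 on the log2 scale. The correlations run over 11 hours and are a description. AT1G32530, a RING-type protein gene, came first with 0.976. AKINBETA1, a beta subunit of SnRK1, followed with 0.950 (0.949 in series 1 and 0.940 in series 2). SDP1, the lipase that starts the breakdown of seed storage oil, had 0.937 and ATG8E, which coats the membranes of autophagy, 0.923. Further genes were AT2G25200 (0.929), AT1G27290 (0.927), bHLH121, a regulator of iron uptake genes (0.917), AT4G26400, another RING-type gene (0.912), AT3G25910 (0.909) and AT5G65660 (0.908).

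On the arrays at the hours that did not choose the 8 genes, 9 of these 10 were higher early than late, against 10.4% of all probe sets. AKINBETA1 differed by 1.56 ± 0.16 (SE, adjusted p = 7.47e-05), ATG8E by 1.36 ± 0.16 (adjusted p = 0.000159), AT5G65660 by 1.60 ± 0.27 (adjusted p = 0.00199) and SDP1 by 0.39 ± 0.12 (adjusted p = 0.0393). AT1G32530, at 0.47 ± 0.15, did not pass (adjusted p = 0.0523). The correlation that named these genes includes the same arrays, so this count is a description of them.

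Little of the wider list of dark- and starvation-induced genes could be found by name. The annotation gave a probe set alone to 5 of the 27 listed genes. The others may be among the 8730 probe sets that it leaves unnamed. Of these 5 genes 2 were higher early (10.4% of all probe sets were). They were AKINBETA1 and MCCA, of leucine breakdown, the latter by 0.37 ± 0.11 (adjusted p = 0.0364). MCCB and IVD of the same route had 0.01 and 0.09 and did not pass, and neither did ATL8 with 0.21. The list's median was 0.21. Of 9 genes induced by sugar 2 were tested, and APL3, a subunit of the enzyme that commits glucose to starch, was lower early, at -1.09 ± 0.18 (adjusted p = 0.00173), while DFR of anthocyanin synthesis had -0.58 (adjusted p = 0.463). Of 3 tested SnRK1 subunits AKINBETA1 alone passed, with AT4G16360 at -0.18 and AT2G28060 at 0.16. Among 6 tested leaf markers 4 were lower early, PSAN, PSBY, PSBW and LHCB4.2, against 9.26% of all probe sets. The annotation gave no probe set alone to the other Kelch F-box genes on the list or to a FAF gene.

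The family of AT3G15450 could be followed in full, since all 5 of its listed genes were measured. AT4G27450 was the relative most like it, at 34.6 and 30.6 at 0 h, 225.4 and 86.5 at 1 h, 748.9 and 322.7 at 12 h, 56.3 and 51.5 at 14 h, and lastly 38.4 and 42.9 at 24 h. It was higher early than late by 1.12 ± 0.21 (SE, adjusted p = 0.00312), and it had both steps of the rule at a smaller size. From 0 to 1 h it differed by 2.57 and 1.39 and from 12 to 13 h by -1.90 and -1.40 (log2, series 1 and 2), reading 197.7 and 119.8 at 13 h, so that its lowest late hours were 14 and 24 h. At 20 h it read 102.1 and 53.6 where AT3G15450 was near its early level. AT5G43830 was also higher early, by 0.50 ± 0.11 (adjusted p = 0.00783), with 445.6 and 466.3 at 14 h as its lowest arrays and 901.7 and 733.6 at 1 h. AILP1 differed by -0.24 ± 0.13 (adjusted p = 0.223) and AT3G22850 by 0.08 (adjusted p = 0.736). Correlations with the mean profile of the 8 genes were 0.806 for AT4G27450, 0.332 for AT5G43830, -0.11 for AILP1 and -0.17 for AT3G22850. In all 3 of the 5 family members, AT3G15450 included, passed as higher early, against 10.4% of all probe sets.

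**Figure D5:**
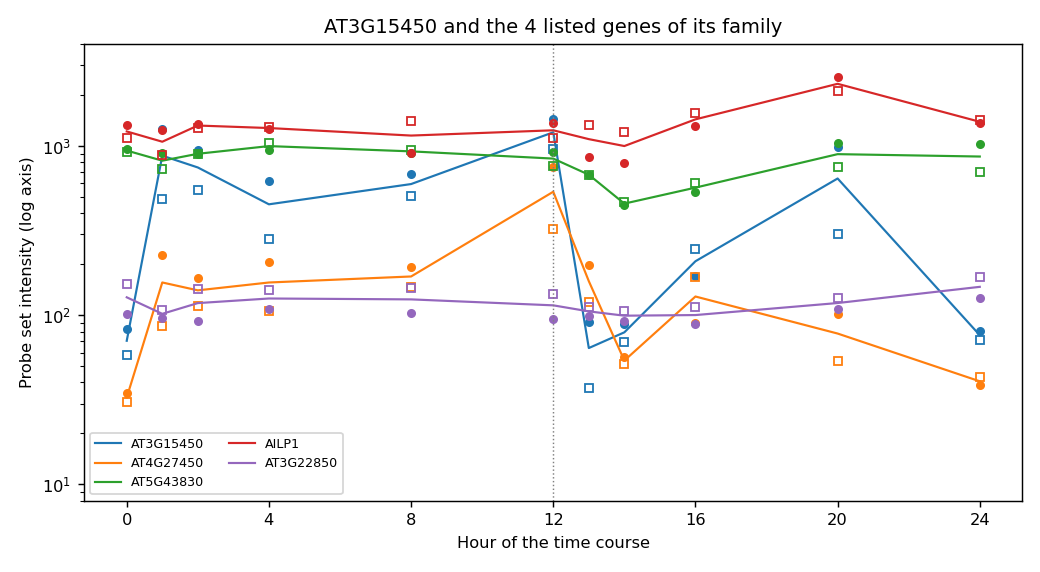
Intensity on a log axis of AT3G15450 and the 4 listed genes of its family against the hour of the time course. Lines join hourly means, circles are series 1 and squares series 2, and heights of different genes are not comparable because they come from different probe sets. AT4G27450 shows both steps like AT3G15450, but its mean is lower at 20 h than at 16 h, and the other 3 genes show neither step.

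Genes lying beside the 8 on the chromosome were looked up for the same steps. Of the 32 genes lying 1 or 2 places from a member in the RefSeq order, 19 had a probe set that the annotation gives to them alone. Of these 13 were tested, and 0 showed a rise and a fall of at least 1 at the 2 steps in both series. Over all probe sets the share was 0.476%, so 0 of 13 is near that share and says little about these neighbours. In the early against late comparison 2 were higher, AT3G15610 (0.53 ± 0.17, adjusted p = 0.0453) and AT3G15640 (0.37 ± 0.11, adjusted p = 0.0321), both 2 places from AT3G15630, and 1 was lower, against 10.4% and 9.26% of all probe sets. The lower one was AT5G19100, which like AT5G19120 encodes an aspartyl protease family protein and lies 2 places from it. It stood between 22.8 and 47.2 on all arrays and differed by -0.53 ± 0.11 (adjusted p = 0.00741). On its other side, also 2 places away, lies AILP1 of the AT3G15450 family, which did not pass.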

How the data were processed

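Values were the authors' deposited table of linear probe set intensity, 1 column per array. The sources used here do not name its software. From the values, all arrays share a trimmed mean of 100 (2% left out at each end). Of 22810 probe sets 64 were controls; the platform annotation named 1 gene for 13513, several for 503 and none for 8730, and 13436 single-gene names matched RefSeq (TAIR10.1), used for names and gene order only. Intensities were taken as log2(value + 4.01), 10% of the median of 40.1, and the upper 60% of probe sets (13648) tested in limma 3.58.1 (R 4.3.3; lmFit, eBayes with a trend), with 1 mean per hour over 14 arrays and 7 residual degrees of freedom. The 8 arrays at 0, 1, 12 and 13 h were left out of the fit. P-values were adjusted by Benjamini-Hochberg over all 13648, with a threshold of 0.05, and measure only the spread between 2 pooled samples an hour. The number of arrays limits the precision. The fit was tested on simulated data.

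The genes, gene lists and tests were chosen with earlier results of these data known, including differences between these hours. All 8 genes are named; beyond them, listed genes measured by a probe set of their own, and the 10 named genes most correlated over the 11 hourly means with the mean profile. For a gene with several probe sets the one of highest mean was used. Genes 1 or 2 places away were added after the data were seen, as were the genes with both steps at least as large. Same-numbered samples deviated from their hourly means in the same direction: over the 21 pairs of the 7 hours tested, correlations of series differences were 0.154 to 0.626 (median 0.413). The numbers were therefore read as pairing the samples, and a fit with the replicate block was run beside the main one. Other alternatives were the pseudocount, the filter, quantile normalization, equal medians, all 22 arrays, array weights, eBayes without a trend, leaving out each array, and leaving out the 8 h and 16 h arrays. A fit without the 3 arrays of highest actin ratio was chosen after seeing the data. Promoter and protein sequences were not analysed here.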

Additional observations from a re-analysis of the deposited data

How the results depend on the processing

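Neither the early against late differences of the 8 genes nor their called steps changed sign under the alternatives run. The share of calls that were higher crossed 50% in 4 comparisons: from 52.8% to 48.7% early against late without the 8 h and 16 h arrays, from 68.5% to 44.8% from 14 to 16 h with a pseudocount equal to the median, from 57.2% to 48.2% from 16 to 20 h with equal medians, and from 39.4% to 52.2% from 20 to 24 h without the 20 h array of series 1. The count of the 8 genes higher at 2, 4 and 8 h was 7 or 8 when each array was left out, 8 with the replicate block, and 6 of the 6 kept in the upper 40% of probe sets, which drops AT3G49790 and AT1G54740. AT2G20670 passed under 9 settings, among them without the 20 h array of series 1 (1.60) or of series 2 (0.88). Of the 8 genes 3 to 6 changed among the late hours when each array was left out. Counts over all probe sets moved more. Early against late 2679 passed, 1946 to 2629 with an array left out, 4257 with the replicate block, 1373 without the 8 h and 16 h arrays and 1467 without the 3 arrays of highest actin ratio; equal medians gave 63.8% higher in place of 52.8%. From 2 to 4 h 1 passed, 1 to 3 with an array left out, 4 with the block, 3 after quantile normalization and 2 with all 22 arrays. From 4 to 8 h 30 passed, 6 to 31 with an array left out, 73 with the block, 12 without a filter, 47 with array weights and 5 without the high actin arrays. From 14 to 16 h 73 passed, 11 to 69 with an array left out, 297 with the block and 15 without the high actin arrays. From 16 to 20 h 647 passed, 293 to 622 with an array left out, 1163 with the block and 303 without the high actin arrays. From 20 to 24 h 104 passed, 23 to 102 with an array left out, 368 with the block, 64 with array weights, 56 without the 8 h and 16 h arrays and 4 without the high actin arrays. A change among 2, 4 and 8 h passed for 81, 9 to 115 with an array left out, 387 with the block, 133 with array weights and 6 without the high actin arrays. Among 14 to 24 h 1681 passed, 1209 to 1659 with an array left out, 2999 with the block and 888 without the high actin arrays. Apart from settings with fewer arrays, the cause was not tested. The rise of AT3G15630 from 16 to 20 h passed in every setting (1.34 to 1.90 with an array left out). Where 1 array of an hour was left out, the other was assumed to vary like the remaining hours. Comparisons that need 8 h or 16 h were not run without them. Of 22 arrays AT2G20670 was below the highest bacterial control on 6, AT3G49790 and AT1G54740 on 4 each, and AT5G19120, AT2G24550 and AT3G15630 on 2 each.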

Other observations

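Probe sets that the annotation leaves unnamed also had the shape of the 8 genes. Over the 11 hourly means, 249862_at correlated with their mean profile at 0.956, with a range of 4.53 on the log2 scale, and 260287_at at 0.941, with a range of 3.52. Of the 23 probe sets whose rise at 1 h and fall at 13 h were both at least as large as the smallest among the 8 genes, 10 named no single gene. Among them 249862_at had a rise of 3.38 and a fall of -4.33. In all 21 probe sets outside the 8 genes correlated above 0.9 with the mean profile, 13 of them named.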
